A study of Mus musculus with 4 samples.

Results

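The genes described here are 10 genes of the Nrf2 antioxidant response: Nfe2l2, which encodes Nrf2, its inhibitor gene Keap1, and the genes Slc7a11, Gclc, Gclm, Gpx2, Txnrd1, Srxn1, Hmox1 and Nqo1, which are classical targets of Nrf2. They were chosen by symbol, as the entries of the deposited table that carry one of these names. All 10 were found, among 17849 genes with an entry, and together they held 46 of the 67319 distinct clusters of transcription starts. The measurement was cap analysis of gene expression (CAGE), which reads a short tag at the cap that marks where transcription of an RNA began; a longer RNA does not give more tags. Levels are in CPM, tags of the gene scaled to a common library total. RNA length thus does not bias a comparison between genes, but near-identical copies or clusters listed under several genes can.

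The 4 libraries came from lesional facial skin of C57BL/6 mice at postnatal day 28. All 4 carried the genotype Nectin-cre(+);Ikk2FL/FL;Postn-/-, that is, floxed alleles of the kinase gene Ikk2, a Cre transgene whose promoter the labels spell Nectin, and loss of Postn, the gene of the matrix protein periostin. The labels place them in 1 group, so no unaffected skin, no other genotype and no other age was compared, and a level given here does not show whether the lesion or either allele raised or lowered a gene. The labels do not say whether the libraries came from 4 animals, nor what the sample codes mean; the codes of libraries 1 and 2 share their first part, as do those of libraries 3 and 4. The p-values below thus refer to how far these 4 samples differ among themselves, and that difference may be technical.

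Nrf2 is a leucine zipper transcription factor that cells make and destroy continuously. Keap1 binds it and brings it to the ubiquitin ligase built on Cul3, and when oxidants or electrophiles modify cysteines of Keap1, Nrf2 escapes, pairs with a small Maf protein and binds antioxidant response elements near its target genes. In skin the pathway is known for protecting keratinocytes against electrophiles, ultraviolet light and peroxides, and its activity is set largely through the stability of the protein, which a count of RNA starts does not measure.

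Promoter sequences are shown first, for 4 of the genes with letters that match the element Nrf2 binds, and for the Txnrd1 start whose share varied most of its 3 main ones. The sequences are from RefSeq on GRCm38.p6, in windows of 300 bp around an annotated start, which were at hand for 8 of the 10 genes in 10 windows. Each window was searched on both strands for the core of the antioxidant response element, TGACNNNGC, and for the form TGAGNNNGC. The latter was added after the result of the former had been seen. The capitals below mark every match to either form, in the orientation in which the gene is read, except in the last line. In the last line, which belongs to the upstream start of Txnrd1 and has no match, they mark the stretch covered by the start cluster before the annotated start.
Nfe2l2, chr2:75704764-75704913, minus strand: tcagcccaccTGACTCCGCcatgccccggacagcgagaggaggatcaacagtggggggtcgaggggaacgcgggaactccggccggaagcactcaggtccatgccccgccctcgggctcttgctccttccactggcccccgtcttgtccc
Gclm, chr3:122245363-122245512, plus strand: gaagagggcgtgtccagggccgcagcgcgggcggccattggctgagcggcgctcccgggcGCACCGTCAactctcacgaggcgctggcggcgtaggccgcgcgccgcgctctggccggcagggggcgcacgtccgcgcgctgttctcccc
Srxn1, chr2:152105274-152105515, plus strand: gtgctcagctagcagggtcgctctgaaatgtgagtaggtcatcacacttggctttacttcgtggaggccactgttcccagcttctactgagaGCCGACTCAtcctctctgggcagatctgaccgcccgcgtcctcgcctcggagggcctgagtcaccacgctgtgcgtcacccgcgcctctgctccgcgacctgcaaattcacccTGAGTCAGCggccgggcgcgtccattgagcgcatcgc
Srxn1, chr2:152105542-152105570, plus strand: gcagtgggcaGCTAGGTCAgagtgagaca
Txnrd1 most used start, chr10:82858956-82859178, plus strand: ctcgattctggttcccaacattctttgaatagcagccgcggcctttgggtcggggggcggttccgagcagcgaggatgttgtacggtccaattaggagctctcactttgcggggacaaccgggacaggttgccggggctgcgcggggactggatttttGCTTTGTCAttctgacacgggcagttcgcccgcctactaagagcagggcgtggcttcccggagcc
Txnrd1 upstream start, chr10:82833701-82833950, plus strand: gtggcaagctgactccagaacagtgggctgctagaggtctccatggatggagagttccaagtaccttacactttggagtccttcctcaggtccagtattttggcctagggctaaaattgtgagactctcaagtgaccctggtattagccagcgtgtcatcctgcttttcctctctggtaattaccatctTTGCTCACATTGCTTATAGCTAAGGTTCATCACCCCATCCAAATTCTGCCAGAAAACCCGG

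The form TGACNNNGC was present in 4 of the 10 windows and in 12.4% of all 32851 windows of the same length. In Nfe2l2 the match TGACTCCGC lay 261 bp upstream of the start cluster. In Gclm the match TGACGGTGC lay on the opposite strand, 216 bp upstream of the most used cluster. In Txnrd1 the match TGACAAAGC lay on the opposite strand, 28 bp upstream of the most used cluster and in the window of that start alone. In Srxn1 the match TGACCTAGC lay on the opposite strand, 120 bp upstream of the most used cluster and downstream of the annotated start, which is why a separate stretch is printed for it. The window of Srxn1 touches only a cluster with 2.08% of its tags and not the most used one.

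TGAGNNNGC was present in 2 of the 10 windows, against 17.6% of all windows: as TGAGAAAGC in Slc7a11, 85 bp upstream of its cluster, and as TGAGTCGGC and TGAGTCAGC in Srxn1. The second of these Srxn1 matches overlaps a match to TGACTCA, the site of AP-1, which had 2 matches in that window, none in the other windows of these genes, and at least 1 in 5.20% of all windows. Either form of the core was present in 5 of the 10 windows, against 27.8% of all. A letter match is a description of these windows only, and antioxidant response elements further away were not looked for.

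The same windows differed in other promoter features. CG dinucleotides numbered 48 in the window of Gclm, 27 in that of the most used Txnrd1 start, 26 in Srxn1 and 18 in Nfe2l2, against a median of 7 over all windows. Gpx2 had 0, the upstream Txnrd1 window 3, Slc7a11 4 and Nqo1 5. The letters TATAAA, the core of a TATA box, were found in Nqo1 alone, 24 bp upstream of its annotated start and within its start cluster, and in 13.6% of all windows. The GC box letters GGGCGG were found in 6 of the 10 windows (35.7% of all) and CCAAT in 4 (37.4% of all).

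The 10 genes spanned a wide range of levels, from Txnrd1 at 113 ± 6.05 CPM (SD, n = 4) to Nqo1 at 5.87 ± 0.759 CPM. For comparison, the median over the 14733 genes of at least 1 CPM was 23.0 CPM, and 7 of the 10 genes lay above it. Among 17038 genes kept, Txnrd1 ranked 1513, Gclc 2043 and Hmox1 2976, while Slc7a11 ranked 9482, Gpx2 9841 and Nqo1 11721. Tags were counted in whole skin, so fewer cells of a type and less RNA per cell cannot be told apart.

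**Figure D1:**
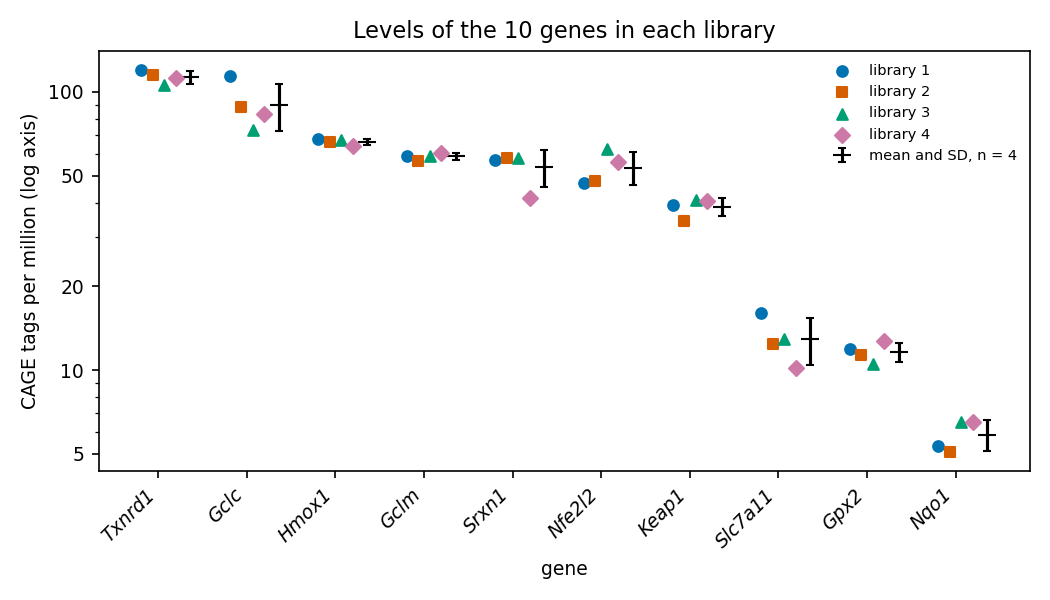
Level of each of the 10 genes, in CPM of CAGE tags on a log axis, in libraries 1 to 4 (coloured symbols), with the mean and SD over the 4 libraries as a black bar. Genes are ordered by mean level, from Txnrd1 (113 CPM) to Nqo1 (5.87 CPM); 3 genes, Slc7a11, Gpx2 and Nqo1, stand apart below the other 7.

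Read down this order, neighbouring genes were not always separated. Txnrd1 lay above Gclc in 4 of 4 libraries, but their ranges met, with a log2 ratio of 0.36 ± 0.20 (SD, n = 4). Gclc and Hmox1 did not overlap (log2 ratio 0.42 ± 0.26), nor did Hmox1 and Gclm (0.18 ± 0.06). Gclm, Srxn1 and Nfe2l2 could not be put in order: Gclm exceeded Srxn1 in 3 of 4 libraries and Srxn1 exceeded Nfe2l2 in 2 of 4, with a log2 ratio of 0.00 ± 0.34. Below them the steps were clear of overlap from Nfe2l2 to Keap1 (0.46 ± 0.14), from Keap1 to Slc7a11 (1.60 ± 0.30) and from Gpx2 to Nqo1 (0.99 ± 0.22). Slc7a11 and Gpx2 overlapped (0.14 ± 0.33).

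Whether any of the genes differed between the libraries by more than genes of its level was tested across all 14733 genes with limma, on log2(CPM + 1) after scaling by trimmed means (TMM). None of the 10 passed at an adjusted p under 0.05, where 34 of all genes did (0.231%). With 4 libraries the test misses large differences, so a gene that did not pass is not thereby shown to be level. The hair shaft keratin Krt34, at 421, 393, 108 and 58.0 CPM in libraries 1 to 4, did not pass either (limma adjusted p = 0.0503). On the recovered tags, edgeR called 0 of the 10 and 33 of all genes (0.224%), and DESeq2, by dispersion above the trend, called 0 of the 10 and 256 of all genes (1.74%). At an unadjusted p under 0.05, limma gave 2 of the 10, Gclc and Srxn1, against 926 of all genes (6.29%). The median coefficient of variation was 10.4% for the 10 genes, 10.2% for all genes tested and 8.44% for the 8915 genes between 10 and 120 CPM.

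**Figure D2:**
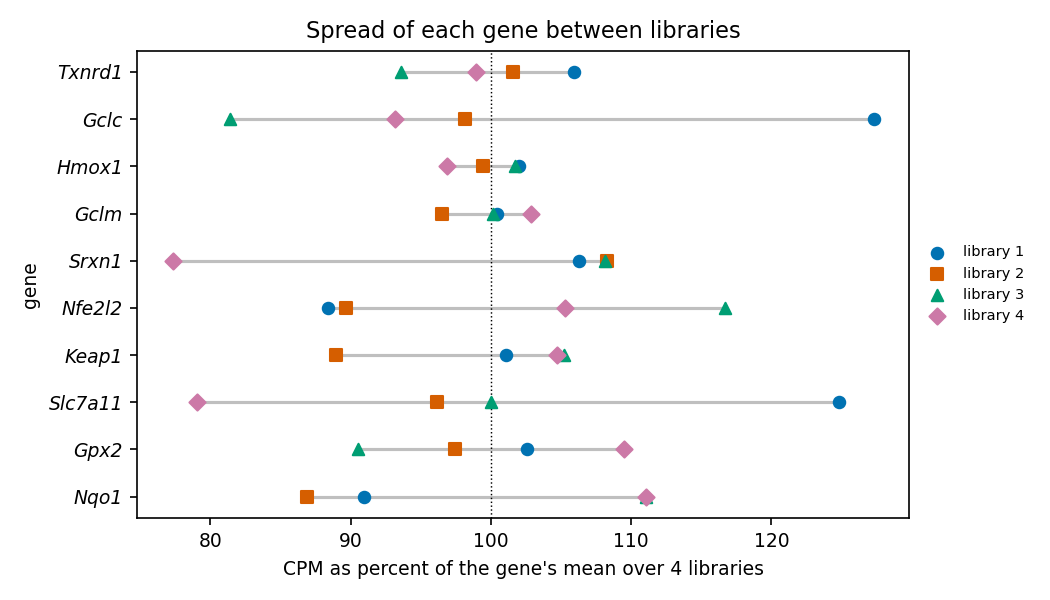
CPM of each gene in libraries 1 to 4 as a percent of its mean over the 4 libraries, with a grey line from the lowest to the highest library and a dotted line at 100. Hmox1 and Gclm lie closest to their means, while Gclc and Slc7a11 are highest in library 1 and Srxn1 is lowest in library 4.

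The 2 genes that set the response, the factor and its sensor, were both well measured. Nfe2l2 (ENSMUSG00000015839.6) stood at 47.1, 47.8, 62.2 and 56.1 CPM in libraries 1 to 4. Libraries 3 and 4 were above libraries 1 and 2, and the gene did not pass the test (limma adjusted p = 0.993, range after scaling 0.33 on the log2 scale). Keap1 (ENSMUSG00000003308.15) stood at 39.1, 34.4, 40.7 and 40.5 CPM. Library 2 was the lowest, and after scaling the 4 libraries lay within 0.10 of each other on the log2 scale.

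Transcripts of Nfe2l2 thus outnumbered those of its inhibitor in every library, by 1.21, 1.39, 1.53 and 1.38 times (log2 0.46 ± 0.14). This and the other gene pairs below were chosen after the levels had been seen, so their ratios are descriptions and were not tested. Keap1 acts as the adaptor of a ligase with Cul3, which stood at 141 ± 6.99 CPM, and the ratio of Keap1 to Cul3 held between 0.262 and 0.288. Nfe2l1, which encodes the related factor Nrf1, stood at 117 ± 7.91 CPM, and Nfe2l2 was at 0.378, 0.449, 0.514 and 0.484 of it, lowest in library 1.

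Nfe2l2 was transcribed almost wholly from 1 cluster, chr2:75704436-75704634 on the minus strand, which held 99.1% of its 3858 tags and spans an annotated transcript start at 75704489. The transcript with an annotated start codon (ENSMUST00000102672.4) begins at 75704641, only 7 bp upstream of the edge of the cluster. Keap1 had 10 clusters, and 4 of them held at least 5% of its 2803 tags, more than in any other of the 10 genes. Of these 4, the first 3 span annotated starts and lie outside the coding sequence, the third partly in an intron. The most upstream, chr9:21239213-21239336 on the minus strand, took 39.2%, 39.7%, 41.5% and 36.9% of the gene's tags in libraries 1 to 4. Further downstream, chr9:21239055-21239085 took 15.6%, 11.6%, 16.2% and 14.6%, lowest in library 2. The next, chr9:21238810-21238845, took 17.3%, 21.1%, 19.6% and 21.9%.

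The last of the 4 Keap1 clusters was of another kind. It was 5 bp wide, chr9:21237754-21237758, and held 655 tags, 23.4% of the gene. It spans the 5′ edge of exon 2 at position 21237756 and lies at -49 to -45 relative to the first base of the annotated start codon, 561 bp from the nearest annotated start. In libraries 1 to 4 it took 24.8% (95% interval 21.7 to 28.1), 25.0% (21.7 to 28.5), 20.5% (17.6 to 23.6) and 23.4% (20.4 to 26.6). The intervals, exact binomial ones that cover counting error only, overlapped among all 4 libraries. Clusters at the 5′ edge of an inner exon, within 1 bp, were common in the table, at 9.15% of the 67319 distinct clusters and 8.98% of the 25416 clusters of at most 5 bp. That count was made after this cluster had been seen. Whether a tag there marks a new start or the end of a processed RNA was not tested.

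**Figure D3:**
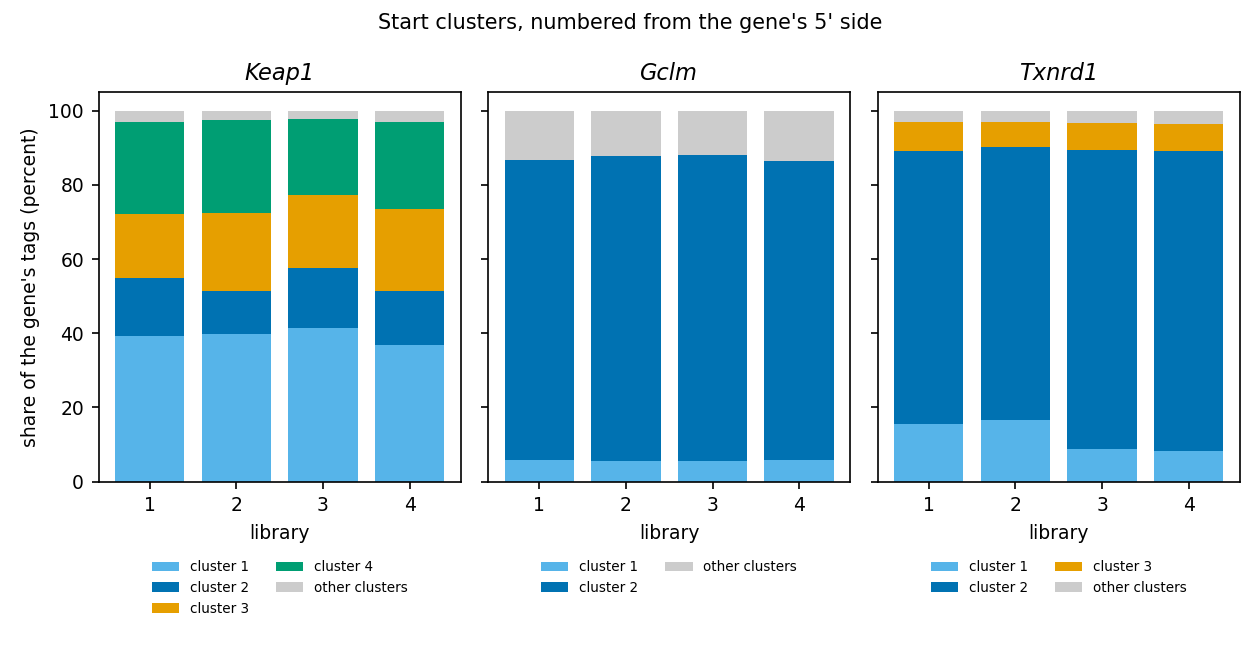
Share of the tags of Keap1, Gclm and Txnrd1 in each cluster with at least 5% of the gene's tags, in percent, for libraries 1 to 4, with all other clusters in grey. Clusters are numbered from the 5′ side; cluster 4 of Keap1 lies at the edge of exon 2 (23.4% over all libraries), and cluster 1 of Txnrd1 is larger in libraries 1 and 2 than in libraries 3 and 4.

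Glutathione synthesis begins with cystine, which the exchanger made of Slc7a11 and Slc3a2 brings into the cell. Slc7a11 (ENSMUSG00000027737.10) stood at 16.1, 12.4, 12.9 and 10.2 CPM. Library 1 was the highest and library 4 the lowest, 1.58 times apart, without passing the test (limma adjusted p = 0.97). Its partner Slc3a2 stood at 135 ± 17.6 CPM, and the ratio of Slc7a11 to Slc3a2 ranged from 0.0866 to 0.104. All 937 tags of Slc7a11 fell in 1 cluster, chr3:50443416-50443617 on the minus strand, which spans 3 annotated starts, while 2 further clusters listed for the gene held no tag in any library.

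Slc7a11 is also known from pigment cells. The 4 melanocyte markers Dct, Tyrp1, Pmel and Mlana summed to 322, 305, 222 and 232 CPM in libraries 1 to 4, and 4 of 5 hair shaft keratins with a kept entry to 1849.8, 1673, 476 and 332 CPM. Both sums were higher in libraries 1 and 2 than in libraries 3 and 4. Slc7a11 deviated from its mean by 0.316, -0.034, 0.013 and -0.296 on the log2 scale before scaling. After scaling it deviated by 0.331, 0.059, -0.036 and -0.353. The part of pigment and hair cells in its level was not tested.

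The first enzyme of glutathione synthesis, glutamate-cysteine ligase, consists of a catalytic subunit, Gclc, and a modifier subunit, Gclm, both textbook targets of Nrf2. Gclc (ENSMUSG00000032350.9) stood at 114, 87.9, 72.9 and 83.4 CPM. Library 1 was 1.56 times library 3 and stood above the other libraries (limma unadjusted p = 0.0311, adjusted p = 0.716; edgeR adjusted p = 0.691). Gclm (ENSMUSG00000028124.15) stood at 58.9, 56.6, 58.7 and 60.3 CPM, a coefficient of variation of 2.63%. After scaling its range was 0.10 on the log2 scale. The spread of its tags was no larger than counting alone gives, at a chi-square of 0.746 per degree of freedom, against 59.8 for Gclc and a median of 3.97 over genes tested.

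The catalytic subunit exceeded the modifier in every library, and the margin varied, at 1.93, 1.55, 1.24 and 1.38 times in libraries 1 to 4 (log2 0.59 ± 0.27). As Gclm was nearly level, this variation was that of Gclc. Gclm in turn exceeded Gss, the enzyme of the second step, by 1.77 to 1.96 times.

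Gclc used a single cluster for 99.9% of its tags, chr9:77754486-77754698 on the plus strand. Gclm had 14 clusters, the most of the 10 genes, of which chr3:122245647-122245824 on the plus strand held 81.5% and chr3:122245585-122245598 held 5.74%. The share of the former was 80.8%, 82.2%, 82.6% and 80.6%. That range of 2.02 percentage points was smaller than in most of 2924 genes, whose median was 4.17 points. These genes had at least 10 CPM and a cluster of 5% or more beside the most used one. They were not matched to Gclm for tag number, on which such a range depends. RefSeq places the start of Gclm 90 bp upstream of the most used cluster, in a window whose clusters held 16.8% of the tags.

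Gpx2, a glutathione peroxidase known best from the gut lining and also made in epithelia under stress, was low. Gpx2 (ENSMUSG00000042808.8) stood at 11.9, 11.3, 10.5 and 12.7 CPM, with library 3 lowest and library 4 highest and no pass of the test (limma adjusted p = 0.993). It was a small part of the peroxidases of this tissue: Gpx1 stood at 574 ± 95.8 CPM and Gpx4 at 82.3 ± 11.8 CPM. The ratio of Gpx2 to Gpx1 was 0.0236, 0.0222, 0.0148 and 0.0221, lowest in library 3. Its 841 tags fell in 1 cluster, chr12:76795319-76795517 on the minus strand, which spans annotated starts and also the start codon, from -142 to 56 relative to its first base. The transcript with that start codon (ENSMUST00000082431.3) begins at 76795554, 37 bp upstream of the edge of the cluster.

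Thioredoxin reductase and sulfiredoxin keep the thioredoxin and peroxiredoxin systems reduced. Txnrd1 (ENSMUSG00000020250.10), the cytosolic reductase and the most abundant of the 10 genes, stood at 119.9, 115, 106 and 112 CPM. Library 1 was the highest and library 3 the lowest. After scaling library 2 was the highest, and the range over the 4 libraries was 0.28 on the log2 scale, which is the median range of all genes tested. It exceeded Txnrd2, the mitochondrial reductase, by 13.3 to 14.6 times in the 4 libraries.

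The starts of Txnrd1 were measured apart from each other, and none of them passed the test of spread between libraries. The gene had 9 clusters, 3 with at least 5% of its tags. The most used, chr10:82859150-82859312 on the plus strand, spans 4 annotated starts and stood at 88.2, 84.8, 84.9 and 90.6 CPM. An upstream cluster, chr10:82833890-82834054, spans an annotated start that lies 25199 bp before the most used cluster and stood at 18.7, 19.2, 9.36 and 9.25 CPM. Libraries 1 and 2 did not overlap with libraries 3 and 4 at this start, while the most used start was nearly level. The third, chr10:82860481-82860592, stood at 9.46, 7.92, 7.71 and 8.19 CPM. It spans an annotated start at 82860505 and also overlaps the 5′ edge of an inner exon.

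As a share of the gene's tags, the upstream start of Txnrd1 took 15.6%, 16.7% (95% interval 15.1 to 18.3), 8.87% (7.61 to 10.3) and 8.25% (7.09 to 9.54). The interval of library 2 holds the value of library 1, those of libraries 3 and 4 overlapped, and the pairs lay apart. These intervals cover counting error only, and how many of all clusters split in the same way was not counted. The most used start took 73.5%, 73.5%, 80.4% and 80.8%. That range of 7.35 percentage points exceeded the ranges of 80.0% of the 2924 genes above, which were not matched for tag number. In the test across 25530 clusters the upstream start had a limma unadjusted p of 0.00573 and an adjusted p of 0.3 (edgeR adjusted p = 0.288), so it did not pass.

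**Figure D4:**
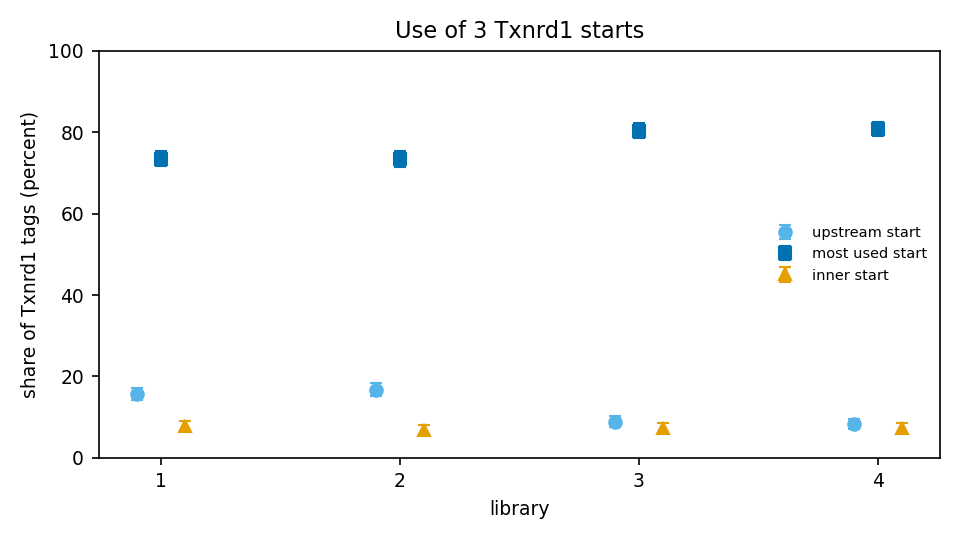
Share of Txnrd1 tags, in percent, at the upstream, most used and inner start in libraries 1 to 4; bars are exact 95% binomial intervals, which cover counting error only. The upstream start took 15.6% and 16.7% in libraries 1 and 2 and 8.87% and 8.25% in libraries 3 and 4, while the inner start held 6.85% to 7.89% throughout.

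The annotation gives the Txnrd1 starts different first exons and different start codons. The transcript that begins at 82833951, within the upstream cluster (ENSMUST00000219368.1), has its annotated start codon at 82872970 in its exon 2. The transcript that begins at 82859179, within the most used cluster (ENSMUST00000020484.7), has it at 82874649, also in exon 2. Tags show only where transcription began, so which codon was used was not measured. Hair shaft keratins (Krt31, Krt33b, Krt34 and Krt86, 4 of 5 listed) summed to 1849.8 and 1673 CPM in libraries 1 and 2 and to 476 and 332 CPM in libraries 3 and 4, and the 4 melanocyte markers to 322 and 305 against 222 and 232 CPM. Both sums, like the upstream start, were higher in libraries 1 and 2 than in libraries 3 and 4, and their part in its use was not tested.

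Srxn1 (ENSMUSG00000032802.8), sulfiredoxin, repairs peroxiredoxins that peroxide has overoxidised. It stood at 56.9, 58.0, 57.9 and 41.4 CPM. Libraries 1 to 3 lay close together and library 4 lay below all of them, with a limma unadjusted p of 0.0418 and an adjusted p of 0.757 (edgeR adjusted p = 0.777). Prdx1, a main substrate among the peroxiredoxins, did not follow: the ratio of Srxn1 to Prdx1 was 0.456, 0.450, 0.410 and 0.297. The 5 skeletal muscle markers summed to 2607, 1928, 3106 and 4852 CPM, highest in library 4, and their part in the low value of Srxn1 was not tested.

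Most tags of Srxn1 lay away from its annotated start. The cluster chr2:152105680-152105841 on the plus strand held 97.9% of the 3887 tags, while the cluster at the annotated start, chr2:152105467-152105595, held 2.08%. The used cluster lies 156 bp downstream of the nearest annotated start at 152105524, inside exon 1, and reaches from -4 to 157 relative to the first base of the annotated start codon at 152105684. Whether its tags mark new starts or the ends of processed RNA was not tested. The low value of library 4 was that of this cluster, at 55.6, 56.8, 57.2 and 40.0 CPM, whereas the cluster at the annotated start stood at 1.27, 1.17, 0.681 and 1.34 CPM.

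Heme oxygenase and quinone oxidoreductase are the most widely used readouts of Nrf2. Hmox1 (ENSMUSG00000005413.8), which opens the heme ring, stood at 67.5, 65.8, 67.3 and 64.1 CPM. On the CPM scale it was the least variable of the 10 genes, with a coefficient of variation of 2.39% and a chi-square of 0.678 per degree of freedom. After scaling its range was 0.20 on the log2 scale, above that of Keap1 and Gclm. It exceeded Hmox2, the constitutive heme oxygenase, by 1.73, 1.68, 1.66 and 1.70 times. Its 4803 tags fell in 1 cluster, chr8:75093559-75093740 on the plus strand.

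Nqo1 (ENSMUSG00000003849.8), which reduces quinones with electrons from NADPH, was the lowest of the 10 genes, at 5.34, 5.10, 6.52 and 6.52 CPM. Libraries 3 and 4 lay above libraries 1 and 2; after scaling the range was 0.19 on the log2 scale, and limma gave an adjusted p of 0.994. It rested on 425 tags, 96 to 117 per library, so counting error was a large part of its spread (chi-square 1.79 per degree of freedom, where 1 is what counting alone gives on average). Hmox1 exceeded Nqo1 by 12.7, 12.9, 10.3 and 9.83 times. All tags of Nqo1 fell in chr8:107403192-107403302 on the minus strand, which spans the annotated start.

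The 10 genes did not all move one way over the libraries. On the CPM scale 4 of them were highest in library 1, 1 in library 2, 3 in library 3 and 2 in library 4, where all genes tested were highest in these libraries in 22.8%, 6.48%, 35.3% and 35.4% of cases. Before scaling, the median of all genes deviated by -0.016, -0.086, 0.049 and 0.058 on the log2 scale in libraries 1 to 4; after it, the counts for the 10 genes were 3, 5, 2 and 0, against 25.0%, 24.0%, 27.9% and 23.1% of all genes. The median deviation of the 10 genes was then 0.048, 0.061, -0.032 and -0.048. Hmox1, Gclc, Gclm, Txnrd1 and Slc7a11 lay above their means in libraries 1 and 2 and below them in libraries 3 and 4 on the scaled values, and the other 5 did not. How many of all genes did so was not counted, so this is no trait of the 10 genes. In Gclm the deviations were small, at 0.022, 0.049, -0.049 and -0.021. Which library was highest thus depended on the scaling for part of the 10 genes.

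Of the 46 clusters of the 10 genes, 16 held at least 5% of their gene's tags or were the most used. Of the 16, 13 span an annotated start, a share that was not counted over all clusters. Nqo1, Hmox1 and Gpx2, 3 of the 10 genes, had 1 cluster each, against 49.3% of all genes kept. The median over genes kept was 2 clusters, while Gclm had 14, Keap1 10 and Txnrd1 9. Of the 21 clusters with enough tags to test, limma called 0, against 141 of 25530 clusters in all (0.552%). edgeR called 0, against 156 in all (0.611%), and DESeq2 called 0, against 412 in all (1.61%). At an unadjusted p under 0.05 limma gave 3, the upstream start of Txnrd1 and the most used ones of Gclc and Srxn1, against 1708 in all (6.69%). This test of clusters was added after the gene values had been seen.

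Other genes of the pathway were read from 6 lists of 71 genes, 70 of which reached 1 CPM. None passed the test of spread with limma, edgeR or DESeq2 (0.231%, 0.224% and 1.74% of all genes tested did), and 7 of the 70 had an unadjusted p under 0.05 with limma, against 6.29% of all genes tested. Their median level was 52.4 CPM, and their median range after scaling was 0.29 on the log2 scale, against 0.26 for the 10 genes and 0.28 for all genes tested.

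**Figure D5:**
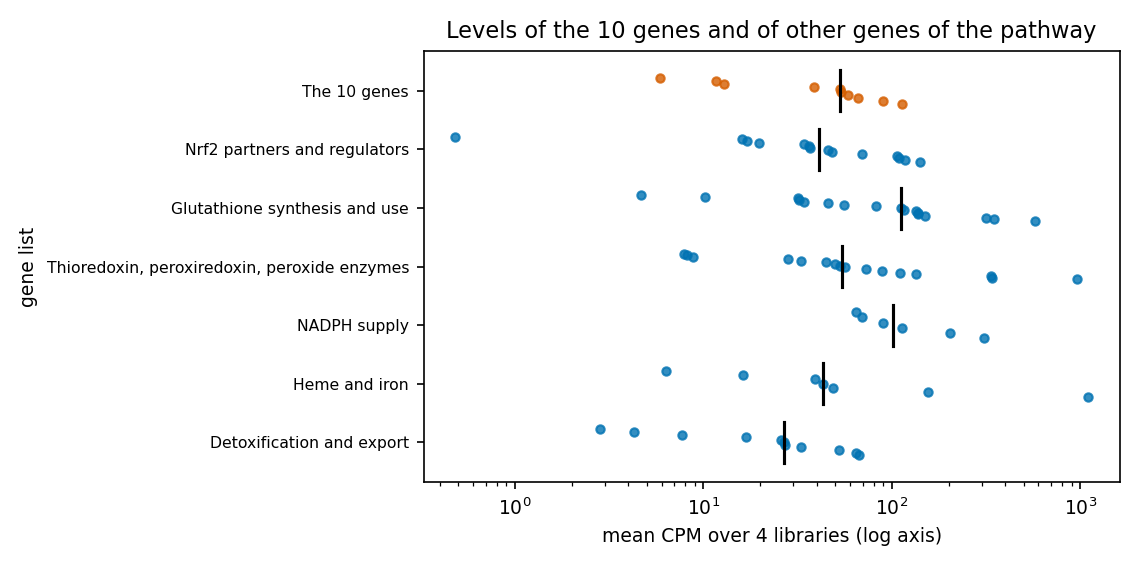
Mean level over the 4 libraries, in CPM on a log axis, of the 10 genes (orange) and of the 71 other genes of the pathway in 6 lists (blue), 1 point per gene, with the median of each list as a black line. The highest points are Fth1 (1101 CPM) and Txn1 (965 CPM), and the medians of the glutathione (112 CPM) and NADPH (102 CPM) lists lie furthest to the right.

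Partners and regulators of Nrf2, 14 genes with a summed level of 797 ± 28.9 CPM, were led by Cul3 and by Nfe2l1. Nfe2, the blood cell relative of Nrf2, was too low to test at 0.482 ± 0.183 CPM. Among the small Maf partners Mafg stood at 47.9 ± 2.18 and Mafk at 34.2 ± 1.95 CPM. Bach1, which competes with Nrf2 for its sites, stood at 69.4 ± 4.35 CPM, above Nfe2l2 in every library. Nfe2, Bach1 and the Maf genes are named for their roles and were picked from the list after their values had been seen.

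Glutathione genes, 17 of them, summed to 2326 ± 267 CPM and were led by Gpx1 (574 ± 95.8 CPM) and Gsto1 (350.1 ± 86.4 CPM), an omega class transferase. The 16 genes of the thioredoxin and peroxide list summed to 2338 ± 162 CPM, led by thioredoxin itself, Txn1, at 965 ± 108 CPM and by the peroxiredoxin Prdx5 at 341 ± 30.3 CPM. All tags of Sesn2 in that list lay in clusters listed under another gene too, so its level is uncertain.

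The 6 genes that supply NADPH were nearly level in sum, at 851 ± 14.5 CPM, led by the pentose phosphate enzymes Tkt (309 ± 8.71 CPM) and Taldo1 (204 ± 0.971 CPM). The 7 heme and iron genes summed to 1411 ± 96.8 CPM, most of it Fth1, the ferritin heavy chain (1101 ± 129.9 CPM), with the iron exporter Slc40a1 next (156 ± 41.2 CPM). Ftl1, the ferritin light chain, was listed at 6.33 ± 0.819 CPM with 27.1% of its tags shared with another gene, and near-identical copies of it make this value uncertain. The 11 genes of detoxification and export were the lowest, at 328 ± 43.2 CPM in sum, led by Esd (66.9 ± 9.46 CPM) and the glutathione conjugate pump Abcc1 (64.7 ± 4.23 CPM).

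The 7 pathway genes with an unadjusted p under 0.05 did not share a direction. Gsta4, a transferase for lipid aldehydes, stood at 79.2, 79.7, 172 and 119 CPM (limma adjusted p = 0.41). It was higher in libraries 3 and 4, as were Gsto1, Aldh3a1 and Glrx, the last at 124, 123, 201 and 151 CPM. The 5 sebaceous gland markers summed to 588, 646, 1174 and 882 CPM, most of it Scd1 (mean 554 CPM). Of these markers Mc5r did not follow the sum, at 18.5, 16.3, 15.2 and 22.0 CPM. The 5 fibroblast markers summed to 3599, 3194, 6059 and 5382 CPM. In Col1a2 and Col3a1, 98.2% and 99.7% of the tags lay in clusters listed under another gene too. Both sums were also higher in libraries 3 and 4, and their part in Gsta4, Gsto1, Aldh3a1 and Glrx was not tested. Slc40a1 stood at 201, 177, 109 and 137 CPM (limma adjusted p = 0.445) and was higher in libraries 1 and 2. G6pdx, the first enzyme of the pentose phosphate pathway, had the same order, at 133, 125, 93.2 and 102 CPM. Gsta3 was highest in library 2, at 2.53, 6.37, 3.40 and 6.24 CPM.

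The libraries held 17630119 to 18823630 tags over all entries, so that 1 tag was worth 0.0531 to 0.0567 CPM. Markers of skin were present in all 4: keratinocyte genes summed to 5875 to 9117 CPM, fibroblast genes to 3194 to 6059 CPM and macrophage genes to 119.6 to 149 CPM. Markers of secretory glands differed most, at 7.81, 34569.8, 0.170 and 5486 CPM, with Mucl2, Obp1a and Smr3a at 0 in library 3, and their part in the CPM of the 10 genes was not tested beyond the scaling above.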

How the data were processed

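A commercial kit turned column-purified total RNA into CAGE libraries, per the labels' protocols. BWA, HISAT2 and the mm9 build are named, per the submitters' processing notes. The coordinates match GRCm38 (GENCODE M21) and are printed as deposited; whether starts count from 0 was not settled, so each may be off by 1 bp. The method of joining tags to clusters was not given in the sources used here.

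Values are CPM, made by the authors from tag counts; 100% of them were whole multiples of 1 tag (tolerance 0.02 tags), so whole tags were recovered. Totals over all entries were 18179860, 18823630, 17630119 and 17939565 tags for libraries 1 to 4. Of 69391 entries, 67319 are distinct clusters and 20326 of these have no gene name. Tags were summed per gene; 33 genes without a tag and 778 genes whose tags lay to 90% or more in another gene's clusters were set aside, leaving 17038.

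The test of spread used log2(CPM + 1), TMM factors of 0.989, 0.933, 1.037 and 1.045, genes with a mean of at least 1 CPM, and limma 3.58.1 in R 4.3.3. Its prior variance was robust and followed the level, with 3.47 degrees of freedom; the F test was one-sided (upper), and p-values were adjusted by Benjamini-Hochberg over all genes tested, at 0.05. On this scale the spread of low genes is understated. edgeR 4.0.16 and DESeq2 1.42.0 on the recovered tags, other scalings, pseudocounts, filters and the omission of each library were alternatives. The scripts were tested on simulated data.

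All 10 genes are named, with every cluster of at least 5% of a gene's tags or the most used one; of each pathway list the 2 highest genes and any gene called are named. The members, lists and markers were chosen with earlier results of these data known. Intervals are exact Clopper-Pearson ones at 95%; they and the floor of 3 tags cover counting error only, since reads without molecular identifiers are not independent molecules.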

Additional observations from a re-analysis of the deposited data

Results flagged for a closer look

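Of 38 values per library examined, levels, shares and ratios, 2 had a library far from the other 3, as chance gives in about 1 of 20 such sets. Srxn1 in library 4 stood at 41.4 CPM, where the other libraries stood at 56.9 to 58.0 CPM; the gap was 0.935 of the whole range. The ratio of Gpx2 to Gpx1 was 0.0148 in library 3, where it was 0.0221 to 0.0236 in the others; the gap was 0.833 of the range, and Gpx1 was highest in library 3, at 710.3 CPM.

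A cluster with no gene name, outside the counts of the 10 genes, lay within Srxn1 on the same strand, chr2:152108984-152108988, and held 107 tags over the 4 libraries, 37, 26, 23 and 21 in libraries 1 to 4. It is 5 bp wide and ends next to the 5′ edge of an inner exon of Srxn1 at 152108989. In every library it exceeded the limit of 3 tags, and there was no control library to set it against.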

How the results depend on the processing

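None of the 10 genes was called variable in 14 of 14 alternatives, with a lowest adjusted p among them between 0.539 and 0.981, and none of the 70 pathway genes in 14 of 14 (0.22 to 0.751). None of the tested clusters was called in 10 of 10 alternatives (0.237 to 0.681). The count over all genes was 34 and moved to 104 without scaling, 56 with a pseudocount of 0.5 CPM, 61 with no filter, 0 with at least 10 tags in every library, 9 with a prior that is not robust, 62 with the most used cluster alone and 256 with DESeq2. It was 57, 52, 112 and 10 without replicate 1, 2, 3 and 4. The cause was not tested. Of 70 levels recomputed, 64 moved by less than the SD between libraries. With the most used cluster alone Keap1 was at 15.2, Gclm at 47.8 and Txnrd1 at 87.1 CPM, as their other clusters were left out; with totals over distinct clusters Hmox1 was at 70.6, Gclm at 62.6 and Txnrd1 at 121 CPM. All 42 shares moved by less than their SD. No paired analysis was possible because the labels give 1 group. Nqo1, with 96 to 117 tags a library, was the gene most limited by depth.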

Other observations

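Transcription on the other strand was weak near these genes. E030042O20Rik, which runs opposite to Nfe2l2, had 3 clusters 98 to 184 bp from the start of Nfe2l2, with at most 7 tags in any library. Gm38560 had a cluster on the strand opposite to Txnrd1, 1 bp from its most used cluster, at 0.605, 0.850, 0.567 and 0.948 CPM. Within Gclm, on the same strand, a cluster of the predicted gene Gm6061 stood at 0.550, 0.691, 0.340 and 1.06 CPM. No cluster of the 10 genes was listed under another gene.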
